A study of Drosophila melanogaster with 2 samples.

Results

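Small nucleolar RNA (snoRNA) genes and the genes that carry them were examined for peaks of CG31365, a Drosophila melanogaster protein, in embryo chromatin. The members were all 269 genes of biotype snoRNA on the main chromosomes in the Ensembl annotation of assembly BDGP6 (dm6), out of 17947 annotated genes. A protein-coding or non-coding RNA gene that contains a snoRNA gene on the same strand was taken as its host. Of the 269 snoRNA genes, 247 had a host and 22 had none, and the hosts, each counted once, numbered 92. The annotation names long non-coding RNA genes with the biotype ncRNA.

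The ChIP-seq libraries came from whole embryos, both sexes together, collected from 0 to 24 h in a line that stably carries CG31365 with GFP at its C terminus, so each peak averages over all embryonic tissues and stages. There was 1 group of 2 biological replicates, numbered 2 and 3, and the tissue, tag and line were shared by both. The deposited lists were 30000 ranked peaks for each replicate, 30000 for the replicates pooled, and the 2821 peaks retained for reproducibility by the irreproducible discovery rate method, called IDR peaks. One free-text label calls the libraries input controls, whereas the assay, antibody and target fields and the file listing describe ChIP libraries with a separate control. Read depth was unknown. A gene was said to have a summit when the highest point of a peak lay within 1000 bp of its annotated transcription start site (TSS). The signal value given for a peak is the authors' peak caller's own enrichment value and is comparable only within a list. Shares carry 95% Wilson intervals, which cover counting over genes only, and neighbouring genes can share a peak. With 1 group there was no contrast to test, so every share below is a description of these lists.

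snoRNAs guide the chemical modification of ribosomal and spliceosomal RNA by base pairing. Box C/D snoRNAs direct ribose methylation with fibrillarin, and box H/ACA snoRNAs direct pseudouridine formation with dyskerin. In flies most snoRNAs are cut from introns of a host transcript after splicing, so the host promoter drives the snoRNA. Many hosts encode ribosomal proteins or other parts of the translation machinery, and others, the Uhg genes, are non-coding transcripts whose introns hold the snoRNAs.

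By symbol, 117 of the snoRNA genes were of box C/D type, 120 were of box H/ACA type and 32 could not be classed. The boxes were then searched in the genome sequence. The C box TGATGA stood in the first 25 bases of 68.4% of C/D genes (59.5 to 76.1) and of none of the 120 H/ACA genes. The D box CTGA stood in the last 15 bases of 92.3% of C/D genes (86.0 to 95.9), and ACA stood in the last 8 bases of 95% of H/ACA genes (89.5 to 97.7). The median length was 80 bp for C/D genes and 140 bp for H/ACA genes. Of the hosted snoRNA genes, 243 of 247 lay in an intron of the host. One gene of each type, from the introns of the 2 ribosomal protein hosts with the highest peaks, shows the boxes in capitals. Both sequences are given 5′ to 3′ from the RefSeq copy of the assembly, and both genes lie on the plus strand. The C/D gene snoRNA:U49:66Da in RpL14 spans chr3L:8601473-8601552, and the H/ACA gene snoRNA:Psi28S-3327a in RpS4 spans chr3L:13042767-13042906.
snoRNA:U49:66Da: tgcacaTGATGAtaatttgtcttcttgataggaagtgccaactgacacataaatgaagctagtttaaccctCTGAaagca
snoRNA:Psi28S-3327a: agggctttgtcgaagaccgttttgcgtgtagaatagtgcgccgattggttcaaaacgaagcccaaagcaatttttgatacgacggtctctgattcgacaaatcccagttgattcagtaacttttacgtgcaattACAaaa

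CG31365 peaks stood at the start sites of 43 host genes, mostly those of ribosomal proteins, and few stood over the snoRNA genes inside them. An IDR summit lay within 1000 bp of a TSS in 43 of 92 hosts (46.7%, 36.9 to 56.9), where 13.9% of all 13968 protein-coding genes and 7.39% of the 3289 non-coding RNA genes had one. At the starts of the snoRNA genes the count was 45 of 269 (16.7%, 12.7 to 21.7), where 12.9% of all annotated genes had one, and these 45 genes shared 32 leading peaks. Many snoRNA genes lie in clusters. With neighbours merged into loci (2000 bp), 31 of 110 loci had an IDR summit (28.2%). The share of all annotated genes was not computed by locus. The count was 22 of 117 for C/D genes (18.8%), 19 of 120 for H/ACA genes (15.8%) and 4 of 32 for unclassed genes (12.5%), with overlapping intervals. In the longer pooled list 74 of 92 hosts (80.4%, 71.2 to 87.3) had a summit against 55.5% of protein-coding genes, while 118 of 269 snoRNA genes (43.9%, 38.1 to 49.8) had one against 53.3% of all annotated genes. By locus, 67 of 110 had a pooled summit (60.9%).

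In narrow windows few snoRNA genes had a summit. Within 50 bp, 29 of 92 hosts and 1 of 269 snoRNA genes had an IDR summit, where 2.72% of protein-coding genes had one. Within 200 bp the counts were 37 of 92 hosts (40.2%) and 7 of 269 snoRNA genes (2.60%), where 8.12% of protein-coding genes and 6.94% of all annotated genes had one. At 500 bp they were 40 of 92 (43.5%) and 17 of 269 (6.32%), beside 11.3% of protein-coding genes and 10.1% of all annotated genes. At 2000 bp they were 46 of 92 and 90 of 269 (33.5%), beside 17.6% and 16.9% of those genes. With the outermost gene end as the only TSS, 37 of 92 hosts had a summit, beside 12.3% of protein-coding genes. An interval of an IDR peak overlapped 6 of the 269 snoRNA genes, and in 1 of them the summit fell inside the gene.

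**Figure D1:**
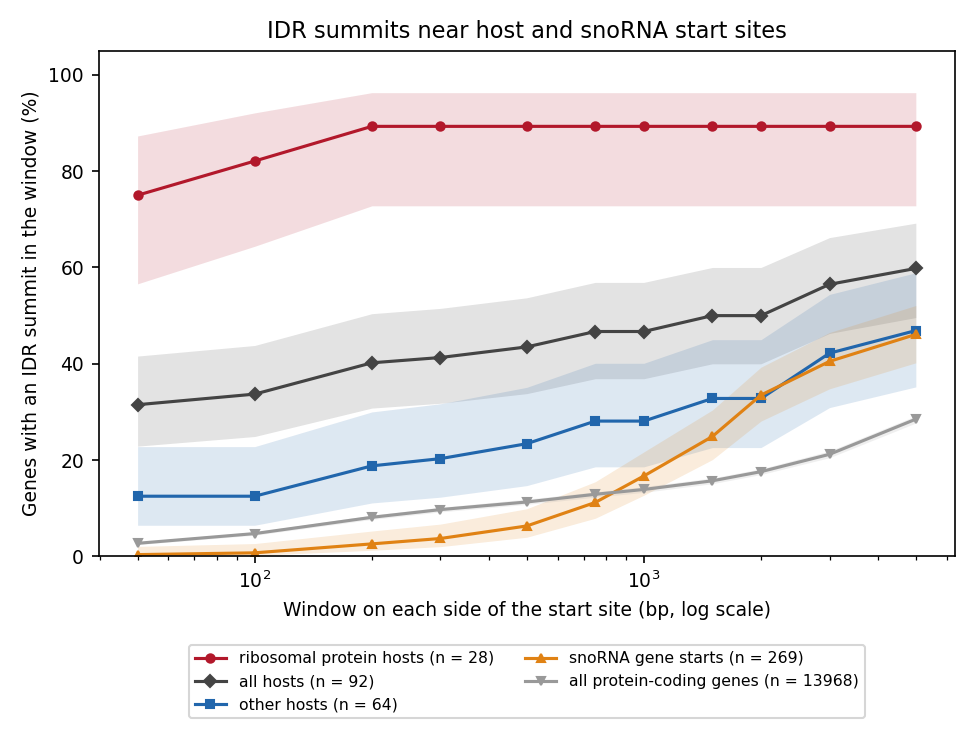
Share of genes with an IDR summit (per cent, vertical axis) against the window on each side of the start site (bp, log scale) for ribosomal protein hosts, all hosts, other hosts, snoRNA genes and all protein-coding genes, with 95% Wilson intervals as shading. Ribosomal protein hosts reach 89.3% at 200 bp and stay there, whereas snoRNA genes rise from 0.372% at 50 bp to 46.1% at 5000 bp.

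Most of the hosts with an IDR summit were genes of cytoplasmic ribosomal proteins, the proteins of the translating ribosome. An IDR summit stood at 25 of 28 such hosts (89.3%, 72.8 to 96.3), and at 47 of the 58 ribosomal protein genes not taken as hosts, a share of 81% (69.1 to 89.1). These 58 include RpL23A, whose snoRNA genes were assigned to Uhg7, a shorter gene within it. Over all 86 ribosomal protein genes the share was 83.7%, and the intervals of hosts and others overlap. The hosts of other kinds numbered 64, of which 18 had an IDR summit (28.1%, 18.6 to 40.1). Among them were 54 coding genes with 17 summits (31.5%, 20.7 to 44.7), where 13.4% of protein-coding genes other than ribosomal protein genes had one. The share of the 64 depends on counting every annotated TSS. With the outermost gene end as the only TSS, 12 of the 64, non-coding hosts included, had a summit (18.8%). The share by that rule was 12.3% for all protein-coding genes, ribosomal protein genes included, so the sets differ from those of the 31.5% and 13.4%. Of the 10 non-coding hosts, 1 had an IDR summit (1.79 to 40.4% by the interval) and 5 had a pooled summit, where 44.3% of non-coding RNA genes had one in the pooled list. In the pooled list all 28 ribosomal protein hosts had a summit, where 93.1% of the 58 ribosomal protein genes not taken as hosts had one.

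The share of hosts with a summit did not rise steadily with the number of snoRNA genes carried. An IDR summit stood at 25 of 55 hosts of 1 snoRNA gene, at 13 of 23 hosts of 2 to 4, and at 5 of 14 hosts of 5 or more. Among hosts of 5 or more, the 4 ribosomal protein genes all had one and 1 of the 10 others did. The 4 were RpS5a with 14 snoRNA genes, all H/ACA, RpS7 with 7, all H/ACA, RpL28 with 5, all C/D, and RpS16 with 5.

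**Figure D2:**
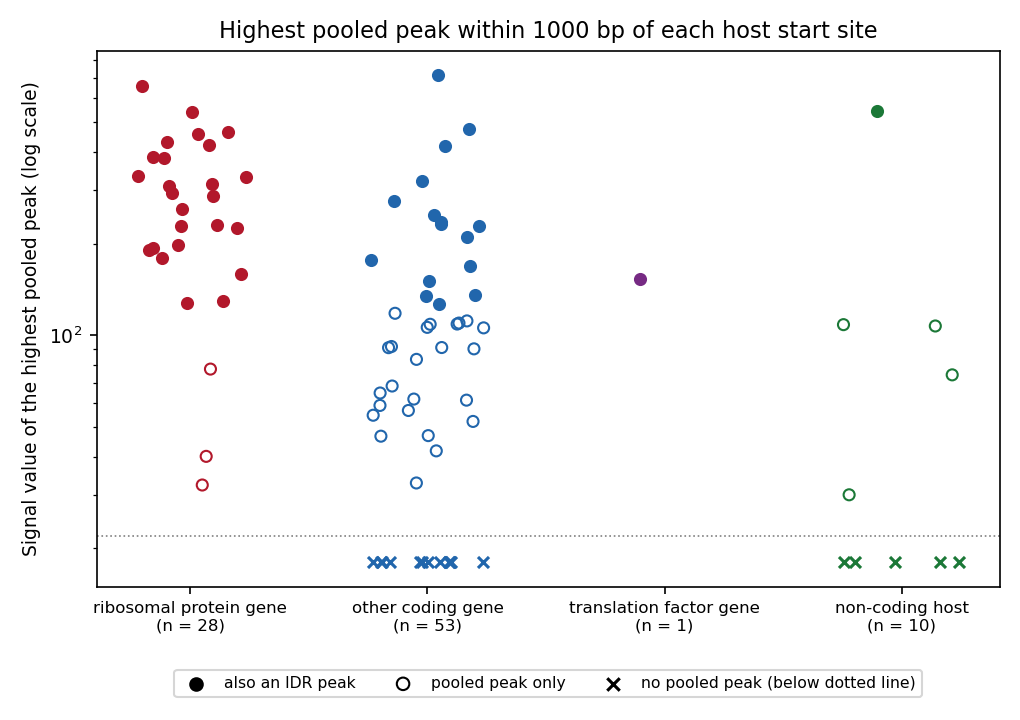
Signal value of the highest pooled peak within 1000 bp of each host TSS (log scale), one point per host, by class of host, with filled points for hosts that also have an IDR peak and crosses below the dotted line for hosts with no pooled peak. Of the ribosomal protein hosts 25 of 28 are filled, and they run from 32.3 to 659.2. The highest point is Stt3A (713.2), a coding gene of another kind. Of the hosts that are not ribosomal protein genes, 18 have no pooled peak within 1000 bp.

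The highest peak at a ribosomal protein host was that of RpL14, a large-subunit protein gene with 2 C/D genes in its introns. Its signal value was 659.2 in the pooled call (rank 230 of 2821), 392.0 in replicate 2 and 266.7 in replicate 3, with the summit 18 bp upstream of the TSS. RpS4, a small-subunit protein gene with 3 H/ACA genes, had 537.9 in the pooled call, 324.1 in replicate 2 and 243.6 in replicate 3. Its summit lay 14 bp downstream of a TSS. Both genes stood among the 300 highest peaks of each replicate list, with ranks 207 and 267 for RpL14 and 264 and 291 for RpS4.
RpL13A had a signal of 463.5, RpL30 458.1, RpL11 430.2 and RpL3 420.5, each with its summit within 50 bp of a TSS. RpL22, RpL28, RpL27A and RpS12, also in the 15 highest hosts, ran from 382.9 down to 329.8. The lowest ribosomal protein hosts with an IDR peak were RpS6 (129.1) and RpS9 (127.5), near the end of the list, whose lowest value was 124.13. The replicates ranked these low ones differently. RpS6 was at rank 1738 in replicate 2 and 7094 in replicate 3, and RpS9 was at 5170 and 1769.

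The snoRNA-rich ribosomal protein hosts were in the middle of the range. RpS5a had a signal of 224.9 in the pooled call, 142.0 in replicate 2 and 82.3 in replicate 3, with the summit 70 bp upstream of a TSS. RpS7 had 308.9 in the pooled call and its summit 23 bp downstream of a TSS, and RpS16 had 313.7 and its summit 1 bp from a TSS. RpL17, with 4 H/ACA genes, had 230.5 in the pooled call, 149.3 in replicate 2 but 34.7 in replicate 3, where its rank was 7360. RpL17's summit also lay 198 bp from the tRNA gene tRNA:Phe-GAA-1-2, and the part of that tRNA gene was not tested.

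Over all 25 ribosomal protein hosts with an IDR peak the median signal was 293.1 (range 127.5 to 659.2) and the median rank 717. The 47 ribosomal protein genes not taken as hosts that had an IDR peak had a median signal of 279.92 (range 127.78 to 1084.6) and a median rank of 771. The 18 other hosts had a median signal of 229.75 (range 126.7 to 713.2) and a median rank of 1050. All 1938 protein-coding genes with an IDR summit had a median signal of 199.98 and a median rank of 1297.5. These ranges overlap throughout.

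Summits sat close to the start sites of ribosomal protein hosts. The median distance from the leading summit to the TSS was 27 bp in the 25 ribosomal protein hosts (range 1 to 131), 166.5 bp in the 18 other hosts (range 6 to 797) and 176.5 bp over all protein-coding genes with a summit. An IDR summit lay within 100 bp of a TSS in 23 of the 25 and in 8 of the 18. The leading one was nearer to the start of another gene than to the host in 0 of the 25 and in 4 of the 18. Ribosomal protein hosts had a median of 2 annotated start sites, as did the other hosts with a summit. The other hosts without an IDR summit and all protein-coding genes had a median of 1.

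Ribosomal protein hosts without an IDR summit included RpL5 and RpL15. RpL5 had a pooled signal of 77.5, with 53.1 in replicate 2 and 18.6 in replicate 3. RpL15 had 32.3 in the pooled call and no peak within 100 bp of it in either replicate list. The nearest IDR summit to RpL15 lay 4388353 bp away, and the nearest to RpL5 lay 390289 bp away.

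The leading peak of most hosts had a match in both replicates. This follows largely from the choice of IDR peaks, which were retained for reproducibility between these same replicates. A replicate 2 summit lay within 100 bp of the leading IDR summit in 42 of 43 hosts, of which 40 were among the 2821 highest of that list, and a replicate 3 summit in 43 of 43, of which 37 were. The host without a replicate 2 match was drn. The median rank of the matched peaks was 721.5 in replicate 2 and 996 in replicate 3.

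**Figure D3:**
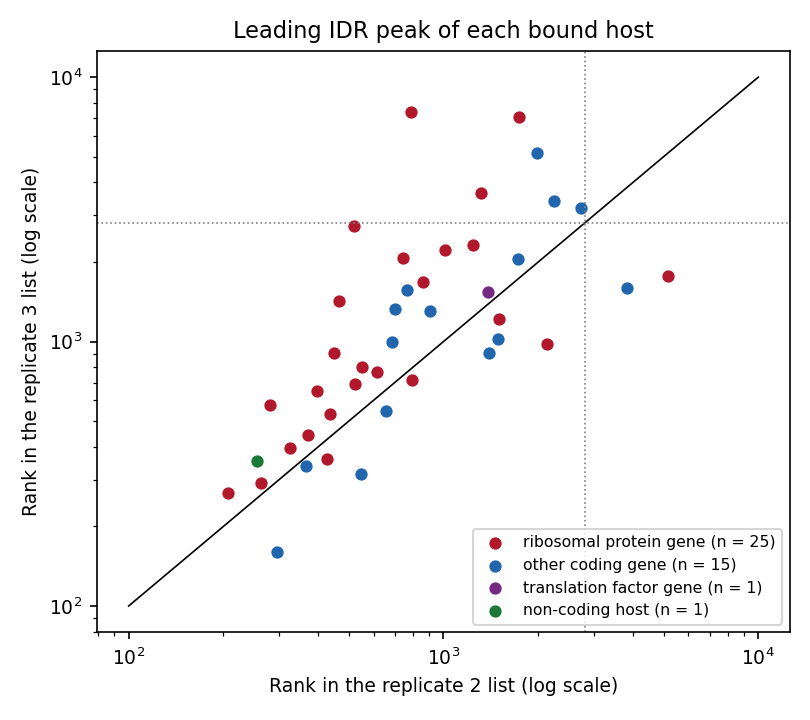
Rank of the leading IDR peak of each host in the replicate 2 list (horizontal, log scale) and in the replicate 3 list (vertical, log scale), coloured by class of host, with dotted lines at rank 2821 and a line of equal rank, for the 42 hosts matched in both. Most points lie left of and below the dotted lines, and RpL17 and RpS6 lie highest, at ranks 7360 and 7094 in replicate 3.

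The promoters of ribosomal protein genes in flies commonly start at a pyrimidine-rich initiator, the TCT motif, in place of the usual initiator. It was searched as either CCTTTC or CCTTTT, and likewise with T in place of the first C, on the sense strand, with the C before the run of T within 5 bp of an annotated TSS. It stood at 18 of 28 ribosomal protein hosts (64.3%, 45.8 to 79.3), at 60.3% of ribosomal protein genes not taken as hosts (47.5 to 71.9), at 7.41% of the 54 other coding hosts and at 2.13% of all protein-coding genes. The 4 promoters below carry it and an IDR summit. They were picked, for carrying it, from the ribosomal protein hosts among the 15 highest. RpL11, RpL22 and RpS12, also among the 15 highest, had an IDR summit without it, and RpL5 had it without an IDR summit. The 4 run from 60 bases upstream of a TSS to 20 bases from it onwards, with the TCT word in capitals. RpL14 is chr3L:8600946-8601025 (plus strand), RpS4 chr3L:13041741-13041820 (plus strand), RpL30 chr2L:19009218-19009297 (minus strand) and RpL13A chr3R:5624414-5624493 (plus strand).
RpL14: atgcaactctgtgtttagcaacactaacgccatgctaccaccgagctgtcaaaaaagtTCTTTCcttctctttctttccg
RpS4: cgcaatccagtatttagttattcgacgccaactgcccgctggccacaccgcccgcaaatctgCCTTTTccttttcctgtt
RpL30: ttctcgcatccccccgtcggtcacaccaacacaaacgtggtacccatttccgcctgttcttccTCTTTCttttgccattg
RpL13A: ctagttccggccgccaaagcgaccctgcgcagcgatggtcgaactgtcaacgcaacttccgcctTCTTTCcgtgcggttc

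Outside the ribosomal protein class few hosts had both the TCT words and a summit. Among all hosts, 18 of 24 with the words and 25 of 68 without them had an IDR summit. Among hosts other than ribosomal protein genes, 1 of 6 with the words (pAbp, the poly(A)-binding protein gene) and 17 of 58 without them had one. Uhg1 and Uhg5, the non-coding hosts that carry 16 and 11 snoRNA genes, both had the TCT words and no IDR summit. A host with a summit and without the words, CG1142 (chr3R:7473762-7473841, minus strand), is shown over the same window for contrast. Hosts with neither by the search rule, RpL15 (chr3L:27267195-27267274, plus strand) and Uhg8 (chr3L:20453233-20453312, plus strand), are also shown. The letters TCTTTT do stand in RpL15, downstream of the TSS, and TCTTTC in Uhg8, upstream of it. Both lay outside the distance from a TSS set for the search, so they were not counted and carry no capitals.
CG1142: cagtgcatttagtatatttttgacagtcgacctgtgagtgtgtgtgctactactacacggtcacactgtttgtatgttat
RpL15: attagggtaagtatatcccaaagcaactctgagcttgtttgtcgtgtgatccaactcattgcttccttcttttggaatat
Uhg8: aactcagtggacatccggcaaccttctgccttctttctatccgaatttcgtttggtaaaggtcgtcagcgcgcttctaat

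Other promoter words were counted on both strands within 100 bp of a TSS. The DNA replication-related element TATCGATA, which the factor DREF recognises, stood at 28.6% of ribosomal protein hosts (15.3 to 47.1) and at 20.4% of other coding hosts (11.8 to 32.9), where 8.48% of all protein-coding genes held it. Among the other coding hosts it stood at 2 of 17 with an IDR summit and at 9 of 37 without one. The E-box CACGTG stood at 25% of ribosomal protein hosts, 13% of other coding hosts and 3 of 10 non-coding hosts, where 3.68% of all protein-coding genes held it. AAGCAGT, a word that was picked from these peaks in earlier work on the same lists, stood within 100 bp of the summit in 13.2% of all 2821 IDR peaks (373). It was in 0 of the 25 leading peaks of ribosomal protein hosts (interval up to 13.3%) and in 3 of the 18 of other hosts, namely Msp300, drn and pAbp. A match is a word in the sequence and was not tested as a binding site.

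Of the hosts that are not ribosomal protein genes, Stt3A had the highest signal of all hosts. Stt3A encodes a catalytic subunit of the oligosaccharyltransferase and carries 3 C/D genes. Its signal was 713.2 in the pooled call (rank 207), 296.8 in replicate 2 and 411.3 in replicate 3, but the summit lay 408 bp upstream of its TSS and only 201 bp from the start of bves. CG1142 had 474.3 (168 bp upstream), CG12316 had 417.5 (142 bp inside the gene), and hts, the adducin gene, had 321.4 with the summit 797 bp downstream of a TSS and a lower IDR peak with its summit 39 bp from a TSS. Hosts whose leading summit was nearer to another gene included Stt3A (bves), CG3902 (the ribosomal protein gene RpL26, 60 bp; a lower IDR summit of CG3902 lay 8 bp from its own TSS) and CG42564 (CRAT, 46 bp). CG42564 also had the lowest signal of all hosts with an IDR peak, 126.7 at rank 2720. The translation elongation factor gene eEF1alpha1 had 153.5 with its summit 6 bp from a TSS.

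Uhg4 was the only non-coding host with an IDR summit. It carries 5 C/D and 2 H/ACA genes. Its signal was 542.3 in the pooled call (rank 286), 329.0 in replicate 2 and 214.4 in replicate 3, with the summit 48 bp upstream of the TSS, the third highest of all hosts. The other Uhg genes were well below it in the same pooled list. Uhg5 had 108.4, Uhg2 had 107.3 and Uhg1 had 74.2 with its summit 859 bp upstream, while Uhg3, Uhg7 and Uhg8 had no pooled summit within 1000 bp. Uhg7 lies within the ribosomal protein gene RpL23A on the same strand, and RpL23A had an IDR peak of 357.4 (rank 513) 74 bp upstream of its own TSS. The 4 C/D genes of Uhg7 thus count under a host without a summit, since the shortest containing gene was taken. By the same rule the snoRNA gene of lncRNA:CR42491 counts under a host without a summit, although it also lies within RpL22, with an IDR peak of 382.9. The 5 snoRNA genes of lncRNA:CR45184 also lie within Sf3b3, which had no IDR summit.

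Hosts with many snoRNA genes and no IDR summit were of varied function. Arpc2, a subunit of the actin-nucleating Arp2/3 complex with 17 H/ACA genes, had a pooled signal of 52.2 at 576 bp from a TSS. The chromatin remodeller gene dom, with 15, had no pooled summit, and neither did CG10576 with 5 or lncRNA:CR45184 with 5. The translation regulator kra, with 8 H/ACA genes, had 91.2. Sf3b3, a splicing factor gene with 4, had 105.8, and the hnRNP gene Hrb98DE, with 7, had 56.7. Nop60B, which encodes dyskerin and carries 7, had 64.7. Of the 25 hosts of 3 or more snoRNA genes, 11 had an IDR summit, among them lola, a gene of a zinc finger transcription factor, with 227.6 at 26 bp from an inner TSS, downstream of its 4 snoRNA genes, and pAbp with 231.9 at 513 bp.

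**Figure D4:**
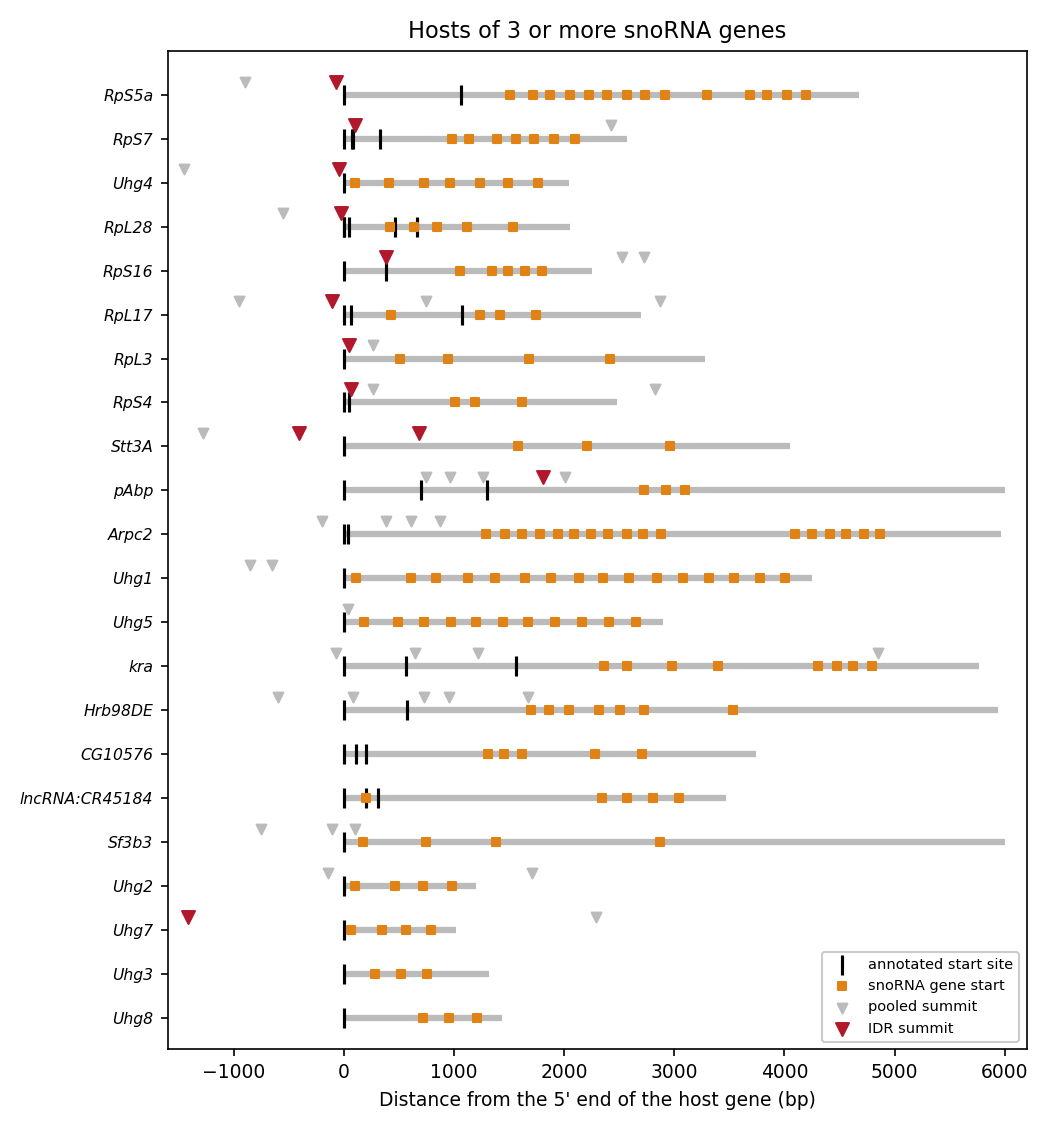
Map of 22 of the 25 hosts of 3 or more snoRNA genes, aligned at the 5′ end of the gene (bp, horizontal), with grey bars for the gene cut at 6000 bp, ticks for annotated start sites, squares for snoRNA gene starts and triangles for pooled (grey) and IDR (red) summits; dom, lola and Nop60B, with at least 1 snoRNA gene beyond 6000 bp, are left out. In the 10 drawn hosts with an IDR summit within 1000 bp of a TSS the summits lie upstream of all snoRNA gene starts, and rows of snoRNA genes in RpS5a, Arpc2 and Uhg1 have none over them.

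Nearly all IDR peaks near hosted snoRNA genes were also near the host start site. An IDR summit lay within 1000 bp of the start of 37 of 247 hosted snoRNA genes (15%, 11.1 to 20), where 12.9% of all annotated genes had one. In 36 of the 37 the same summit was also within 1000 bp of a host TSS, and in all 36 it was nearer to that TSS than to the snoRNA start. Of the 71 snoRNA genes in ribosomal protein hosts 29 had a summit, and of the 176 in other hosts 8 had one. A host with an IDR summit carried 98 of the hosted snoRNA genes. The 149 in hosts without one had 0 summits among them, which near a host TSS follows largely from how such hosts are defined.

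The count was then split by the distance between the snoRNA start and the nearest host TSS. In hosts with an IDR summit it was 16 of 22 snoRNA genes up to 500 bp from the TSS, 18 of 27 from there to 1000 bp, 2 of 34 from there to 2000 bp and 1 of 15 beyond 2000 bp. The step at 1000 bp follows from the window. In hosts without an IDR summit the counts were 0 of 13, 0 of 24, 0 of 41 and 0 of 71. Such hosts by definition have no IDR summit within 1000 bp of any TSS, so the zeros near the TSS follow largely from that rule. Beyond 2000 bp the windows of host and snoRNA gene do not overlap, so 0 of 71 was not set by it. Many of the 71 share a host, such as dom or Arpc2, and do not count separately. Over all hosts, 1 of 86 snoRNA genes beyond 2000 bp had a summit, or 1 of 32 loci. Of all annotated genes, 12.9% had one. The median snoRNA gene lay 1433 bp from its host TSS.

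**Figure D5:**
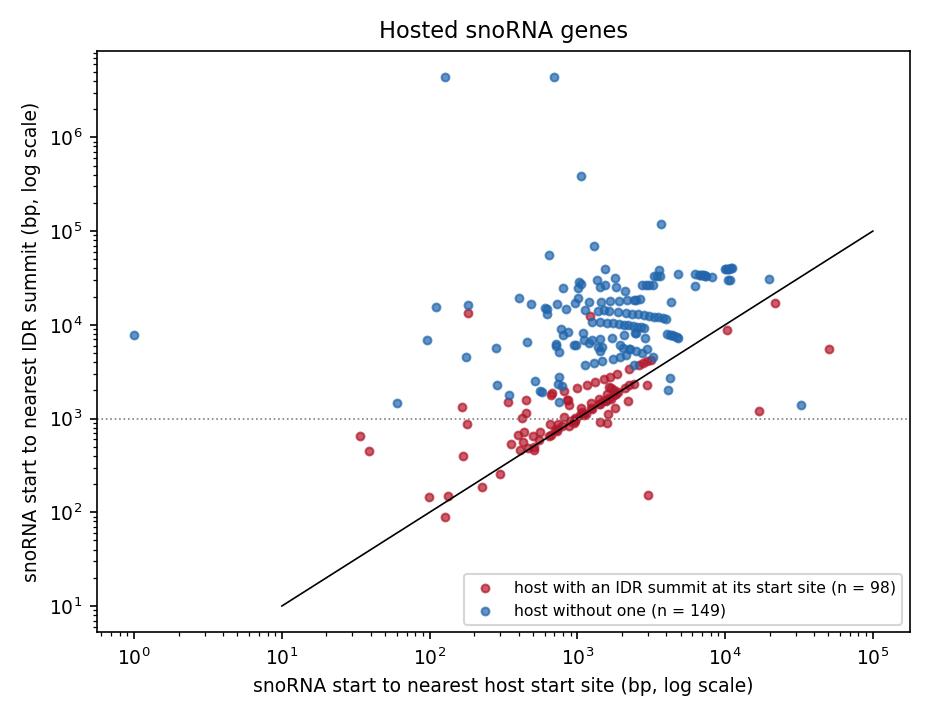
Distance from each hosted snoRNA gene start to the nearest host TSS (bp, log scale, horizontal, 0 drawn at 1) and to the nearest IDR summit (bp, log scale, vertical), for 98 genes in hosts with an IDR summit and 149 in other hosts, with a line of equal distance and a dotted line at 1000 bp. The genes in hosts with a summit gather along the line of equal distance. No gene of the other hosts lies under the dotted line, which near a host TSS follows largely from how those hosts are defined.

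The exception among hosted snoRNA genes was snoRNA:hts-a, which lies 2994 bp from the nearest TSS of its host hts. A summit of signal 341.0 (rank 553; 176.6 in replicate 2 and 174.7 in replicate 3) lay 151 bp upstream of its start. The summit lay 43 bp from the tRNA gene tRNA:Ser-CGA-1-4, and the part of that gene was not tested. Of the 32 peaks that led at snoRNA genes, 3 lay within 200 bp of an end of a tRNA gene, as did 1.10% of all 2821 IDR peaks (31).

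Of the 7 snoRNA genes with an IDR summit within 200 bp, 4 lay just downstream of a host TSS. They were snoRNA:Psi28S-2949 in Uhg4 (147 bp), snoRNA:Psi18S-920 in RpL10Ab (148 bp), snoRNA:Me28S-A774b in RpS12 (184 bp) and snoRNA:Or-aca2 in RpS6 (88 bp). At the limit of 1000 bp, the genes just inside were snoRNA:U49:66Db in RpL14 (960 bp), snoRNA:Psi28S-1175a in RpS16 (957 bp) and snoRNA:Psi28S-3327a in RpS4 (952 bp). Just outside were snoRNA:Me28S-A1322 in eEF1alpha1 (1007 bp), snoRNA:Me28S-A982a in Uhg4 (1012 bp) and snoRNA:Psi18S-1377a in RpS7 (1036 bp).

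The snoRNA genes without a host held the highest peaks of the whole family. Such genes have no annotated host promoter. An IDR summit lay near 8 of 22 (36.4%, 19.7 to 57.0) and a pooled summit near 20 of 22, where 12.9% and 53.3% of all annotated genes had one. The 8 genes shared 6 leading peaks at 5 loci. Within 200 bp, 2 of the 22 had an IDR summit (9.09%), beside 6.94% of all annotated genes.
The H/ACA gene snoRNA:Or-aca4 had a signal of 2202.7 in the pooled call (rank 70), 1428.5 in replicate 2 and 787.0 in replicate 3, with the summit 143 bp upstream of its start. The H/ACA gene snoRNA:Psi28S-3342 on X had 1508.1 in the pooled call (rank 95), 936.4 in replicate 2 and 574.5 in replicate 3, with the summit 233 bp upstream. Both were above every host in all of these lists, and the nearest other gene start to the second summit, that of asRNA:CR45518, was 7198 bp away.

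Both of these high summits had the word AAGCAGT within 100 bp, in 2 copies at snoRNA:Or-aca4 and 1 at snoRNA:Psi28S-3342. They were the 2 of the 6 leading peaks at unhosted snoRNA genes that held it (33.3%, 9.68 to 70), where 13.2% of all IDR peaks did. The word was picked from these same peaks, so its presence here is a description only. The 50 bases on each side of the second summit are given on the strand of the gene (chrX:5524648-5524748, minus strand), with the word in capitals, followed by the gene itself (chrX:5524302-5524465, minus strand) with its ACA box in capitals.
Summit at snoRNA:Psi28S-3342: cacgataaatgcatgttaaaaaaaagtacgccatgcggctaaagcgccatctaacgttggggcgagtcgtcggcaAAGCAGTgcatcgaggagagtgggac
snoRNA:Psi28S-3342: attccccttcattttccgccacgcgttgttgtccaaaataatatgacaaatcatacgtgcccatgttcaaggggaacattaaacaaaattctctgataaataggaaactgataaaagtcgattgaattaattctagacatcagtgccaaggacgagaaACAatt

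The remaining unhosted genes had lower signals. snoRNA:185 had 310.1, with its summit 151 bp from tRNA:Glu-TTC-1-5, whose part was not tested. The H/ACA gene snoRNA:Psi18S-176 had 264.3, with 109.6 in replicate 2 and 149.9 in replicate 3, and it was the snoRNA gene with a summit inside it, 8 bp from its start. A cluster of neighbouring genes made up the others: scaRNA:MeU1b-A234, snoRNA:Or-ACA6 and snoRNA:Or-CD13 shared a peak of 195.5, and snoRNA:Or-ACA7 beside them had one of 125.1. The U3 genes, which encode the C/D RNA that acts in cleavage of the ribosomal RNA precursor and are transcribed on their own, had no IDR summit. In the pooled list snoRNA:U3:54Ab had 73.9 and snoRNA:U3:9B had 58.8, and snoRNA:U3:54Aa had no summit.

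The genes of the proteins that assemble with snoRNAs were read from a list of 18, of which all were in the annotation. An IDR summit stood at 3 of the 18 and a pooled summit at 15, where 13.9% and 55.5% of protein-coding genes had one. The 3 were Pih1D1 (198.1 at 256 bp upstream) and pont (157.6 at 150 bp upstream), which act in particle assembly, and NHP2 (161.8 at 188 bp upstream), an H/ACA core protein gene. Fib (fibrillarin), nop5 and Nop60B (dyskerin) are themselves snoRNA hosts, and none had an IDR summit, with pooled signals of 106.2, 41.8 and 64.7. CG31365 itself had neither an IDR nor a pooled summit within 1000 bp of its TSS.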

How the data were processed

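Per the labels, chromatin was sonicated to 200 to 800 bp. The authors deposited 4 narrowPeak lists on assembly dm6, called, per the deposited file listing, against a separate control file. Deposited column 7, the peak caller's signal, described and ranked peaks within a list. Deposited column 9, the −log10 q-value, was not used, and the deposited summit offset (column 10) gave positions. The aligner and its version, the peak caller, the IDR threshold and the depth are not given in the sources used here. Genes came from Ensembl release 115 (BDGP6.54) without transposable elements and pseudogenes, and sequence from RefSeq's copy of that assembly. The host was the shortest containing gene. Replicate values are of the highest replicate peak with a summit within 100 bp. The matching code was tested on simulated data.

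Members and lists were chosen with earlier results of these data known. Named were CG31365, the 15 hosts of highest signal, hosts of 3 or more snoRNA genes, snoRNA genes with an IDR summit within 200 bp, the 5 highest unhosted ones, hosted ones over 2000 bp from any host TSS with an IDR summit, snoRNP protein genes with one, and members next to the 1000 bp limit. Others were named after their values were seen, and some results are not reported here. Alternatives changed the window, list, replicate, overlap rule, host rule, TSS rule, intron rule and locus merging (2000 bp). Python 3.11.15, numpy 2.4.6, pandas 2.3.3, matplotlib 3.10.9 and pyfaidx 0.9.0.4 were used.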

Additional observations from a re-analysis of the deposited data

How the results depend on the processing

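Of 115 alternative values under 11 settings, 93 kept to within 1.5 times the reported count or within the spread between replicates, 22 moved and 0 reversed. These labels compare the counts or medians themselves, not shares beside those of all genes. The share of snoRNA genes with an IDR summit was 16.7% at 1000 bp, beside 12.9% of all annotated genes. At 200 bp it was 2.60%, beside 6.94%. When loci were counted once, 31 of 110 had an IDR summit (28.2%) and 67 of 110 a pooled one (60.9%). snoRNA genes with an IDR summit were 7, 17 and 90 at windows of 200, 500 and 2000 bp, and those with a pooled summit 27, 55 and 187. Hosted ones sharing the summit with the host TSS were 4, 11 and 78 at these windows. Those far from the host TSS were 4 at 2000 bp, 2 with the outermost host TSS alone and 1 to 4 when either replicate was left out. Unhosted ones were 2 of 22 at 200 bp (9.09%) and 5 of 22 at 500 bp (22.7%), beside 6.94% and 10.1% of all annotated genes. When loci were counted once they were 5 of 17 (29.4%). Other hosts numbered 11 with the 1410 highest IDR peaks alone. The median signal of host peaks, 248.68, was 311.3 among those 1410 and 114.42 to 149.15 when either replicate was left out, which reads a single replicate's list on its own scale. The median smallest distance to the host TSS, 43 bp, was 35 bp at 200 bp and 70 bp with the outermost TSS. Hosts with an IDR summit ranged from 32 among those 1410 to 48 without replicate 3, and ribosomal protein hosts from 21 to 26. With the outermost TSS alone hosts were 37 of 92, where 12.3% of protein-coding genes had a summit. No paired analysis was possible because there is 1 group. Read depth was unknown, and a summit places a site only roughly.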
